A study of Mus musculus with 2 samples.

Results

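C1q-low antigen-presenting cells of the mouse RPE and choroid were examined in 2 single-cell RNA libraries, 1 from control and 1 from Dox eyes. The cells were chosen by their own counts, so the class II, C1q, Rpe65 and Dcn values below are a description of that choice. Among cells with over 500 UMIs (counted RNA molecules), 200 to 6000 genes and under 20% mitochondrial UMIs, a member had at least 20 UMIs and 10000 CPM (UMIs per 1000000 of the cell) summed over Cd74, H2-Aa, H2-Ab1 and H2-Eb1. It also had under 10 UMIs of C1qa, C1qb and C1qc together, under 10 of Rpe65, and under 2000 CPM of Dcn. Of 35627 kept cells, 439 were members, 274 of 20189 in control and 165 of 15438 in Dox. They were set beside 428 C1q-positive macrophages, of which 283 were control and 145 Dox cells. These were kept cells with 10 or more C1q UMIs that passed the same Rpe65 and Dcn limits.

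The control library came from C57BL/6J males of 3 months that received PBS in the subretinal space. The Dox library came from mice of the same strain, sex and age that received 1 µl of 100 ng/µl doxorubicin (Dox) there, a drug that damages DNA. Each library pooled 10 eyes of 5 mice, taken 7 days after the injection, and held the papain-dissociated RPE, choroid and sclera together, so that the cells reported here are not from the RPE alone. With 1 library per condition, treatment, injection and library cannot be told apart, and no test between conditions was made. All intervals are 95% intervals of counting error.

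Antigen-presenting cells take up protein, cut it into peptides and show these on class II molecules to CD4+ T cells. The invariant chain Cd74 holds the class II groove until H2-DM exchanges its remnant for a peptide, H2-O restrains that exchange, and the transactivator Ciita drives the genes together. In the choroid, class II is carried by dendritic cells, by part of the resident macrophages, which also make the complement protein C1q, and by B cells.

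The class II genes lie in a cluster on chromosome 17, with H2-Oa at chr17:34092340-34095234 and H2-Eb1 at chr17:34305867-34316674 among them (GRCm38, as mm10). Class II promoters are known for a Y box, a CCAAT element with the letters TGATTGG on the coding strand, and 3 promoters that hold it are shown, those of H2-Aa and H2-Eb1, which took part in the choice of the cells, and of H2-Ob, which did not. The genes did not share 1 pattern among the clusters described below: H2-Ob was highest in the B cell-like cluster (608 CPM), where H2-Aa (6691 CPM) and H2-Eb1 (4323 CPM) were lowest. RefSeq's GRCm38.p6 promoters gave the 80 bases from 110 to 31 before each start, written 5′ to 3′ on the gene's strand with TGATTGG in capitals.
H2-Aa (chr17:34287854-34287933, minus strand): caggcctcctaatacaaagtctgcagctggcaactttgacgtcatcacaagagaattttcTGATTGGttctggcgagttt
H2-Eb1 (chr17:34305757-34305836, plus strand): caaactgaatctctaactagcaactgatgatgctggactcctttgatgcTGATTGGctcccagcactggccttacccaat
H2-Ob (chr17:34238795-34238874, plus strand): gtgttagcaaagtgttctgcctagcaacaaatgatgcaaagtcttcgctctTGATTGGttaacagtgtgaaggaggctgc
The letters began 50, 61 and 59 bases before the starts of H2-Aa, H2-Eb1 and H2-Ob. Read on either strand, they were in this 80-base stretch of 1328 of 32851 promoters (4.04%). The same stretch of H2-DMa, Ctss and Lgmn held no match. A match of letters is a description and not a measured site.

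Class II RNA was spread over a wide range among the members. The summed class II UMIs per cell had a median of 563.5 in control (20 to 1551) and 801 in Dox (20 to 1604), and the median level was 75837 CPM and 91730 CPM. In the macrophages the medians were 44 UMIs in control and 24 in Dox, and 151 of 283 and 65 of 145 macrophages passed the same class II limits. Members were deeper, with medians of 6464.5 and 7938 UMIs against 4529 and 4157 in macrophages. C1q had a median of 0 UMIs in members of both libraries. No member barcode was a member in both libraries, and 11 members carried a barcode deposited in both.

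**Figure D1:**
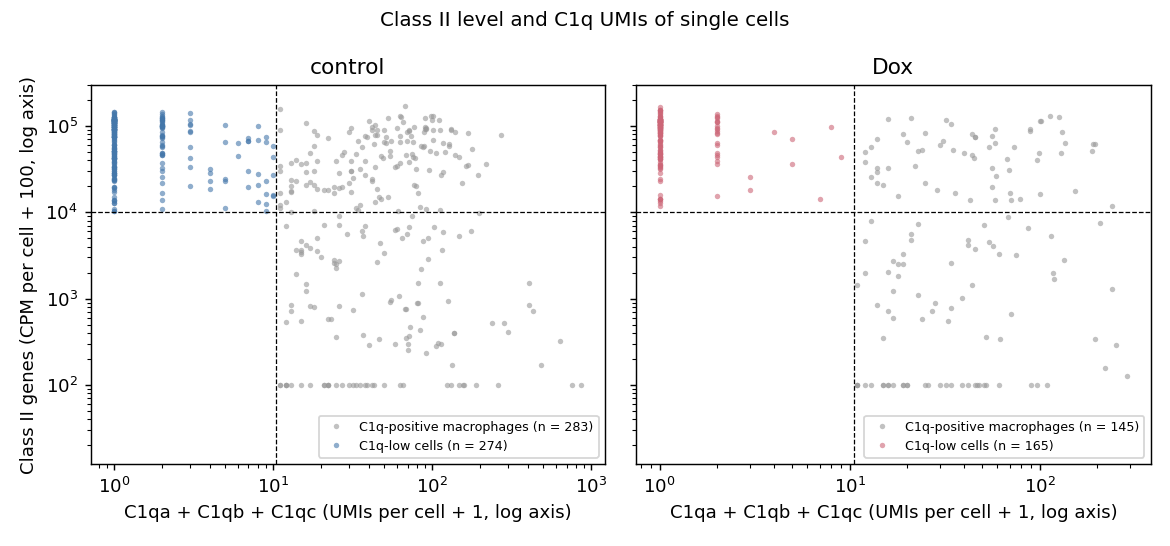
Each point is a cell, with its C1qa, C1qb and C1qc UMIs plus 1 on the x axis and its class II level (CPM plus 100) on the y axis, both log axes. Dashed lines mark the limits of 10 C1q UMIs and 10000 class II CPM. The C1q-low cells (blue in control, red in Dox) sit above the class II limit by choice, while the macrophages (grey) run from 0 to 171520 CPM.

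Cells close to the limits showed how sharp the choice was. The 23 control members with 5 to 9 C1q UMIs were shallow (median 2009 UMIs) and held less Cd209a (270 CPM) and more of the macrophage gene Ms4a7 (349 CPM) than the 188 members with no C1q UMI, at 908 and 34.7 CPM. The 14 control cells just outside, with 10 to 14 C1q UMIs, had Cd209a at 0 and Ms4a7 at 768 CPM. Dox had 3 members just inside and 9 cells just outside. At the class II limit, 17 control members and 1 Dox member had 20 to 29 UMIs, with Cd209a at 0, and 28 and 13 cells with 10 to 19 UMIs were left out. The Dcn limit left out 52 control and 17 Dox cells that otherwise passed.

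Members made up 1.36% of the kept control cells (1.20 to 1.53%) and 1.07% of the kept Dox cells (0.913 to 1.24%). Macrophages made up 1.40% (1.24 to 1.57%) and 0.939% (0.793 to 1.10%). Among members and macrophages together, the members were 49.2% in control (44.96 to 53.4%) and 53.2% in Dox (47.5 to 58.9%), so the balance of the kinds overlapped within counting error. Shares depend on dissociation, and how it differed between the libraries was not tested.

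The marker Cd209a, a C-type lectin of dendritic cells (chr8:3743397-3748984, minus strand), took no part in the choice. It was at 886 CPM in control members and 963 CPM in Dox members, against 14.3 and 36.8 CPM in macrophages. A UMI of Cd209a was found in 51.8% of control members (45.7 to 57.9%) and 58.8% of Dox members (50.9 to 66.4%). After thinning each cell to 2000 UMIs, which left out 46 and 12 shallower members, a Cd209a UMI was found in 114 of 228 control members and 77 of 153 Dox members (50.3%). As background, 0.59% of control and 0.18% of Dox cells with 10 or more Rpe65 UMIs had a Cd209a UMI, at medians of 16072 and 18167 UMIs. At this equal depth the shares of the libraries differed by less than counting error, and close to as many members gave no Cd209a UMI as gave any. A member without a UMI at this depth is not shown to lack the gene.

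Clustering the members without the genes that chose them gave 7 clusters, named by markers where these allowed. The largest was dendritic type 2-like, with 87 control and 67 Dox cells. It was led by Tbc1d4, the decoy interleukin 1 receptor Il1r2, the chemokine Ccl22, Bcl2a1b, the lectin receptor Klrd1 and the lectin Clec10a. Cd209a stood at 1087 CPM there, Clec10a at 518 CPM and Klrd1 at 515 CPM, and 65 of 87 and 57 of 67 cells had 2 or more Cd209a UMIs. Its class II RNA was the highest of the clusters, with a median of 112146 CPM in the control and 112546 CPM in the Dox library.

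A small mature dendritic-like cluster held 6 control and 4 Dox cells. It carried Ccr7, the chemokine receptor that leads dendritic cells to lymph nodes, at 10505 CPM, the actin bundler Fscn1 at 5405 CPM, the interleukin 12 subunit Il12b at 2584 CPM and the chemokine Ccl5 at 16467 CPM. Cd209a and Clec10a were at 0 in it. Another cluster of 15 control and 10 Dox cells was led by the cycle genes Hist1h2ae, Top2a and Ube2c, and held Cd209a at 1083 CPM. Its cells were the deepest in control, with a median of 13289 UMIs, and in Dox, with 13870.

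The B cell-like cluster had 28 control and 29 Dox cells and was led by kappa variable segments such as Igkv1-110. Cd79a, part of the B cell receptor, was at 3440 CPM and Ms4a1 at 304 CPM, while Cd209a, Clec10a and Klrd1 were at 0. Cells of the B cell-like cluster were shallow, with medians of 2296.5 and 2718 UMIs, and had a class II median of 45327 CPM in the control and 44248 CPM in the Dox library. The genes H2-Ob and H2-DMb2, at 608 and 949 CPM, were each higher in this cluster than in the other 6.

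The remaining 3 clusters were left unnamed because their markers pointed several ways. The cluster led by C1qb, with 83 control and 24 Dox cells, held Cd209a at 1343 CPM beside macrophage and pigment genes, with C1qb at 195 CPM, Ms4a7 at 140 CPM, Pmel at 1136 CPM and Dct at 1866 CPM. C1qb, which took part in the choice of the cells, had UMIs in 39 of its 107 cells, and Ms4a7 in 28. At least 2 Cd209a UMIs were found in 31 of 83 control and 12 of 24 Dox cells. The CPM values pool both libraries, and Dct was at 2335 CPM in the cluster's control and 437 CPM in its Dox cells. Pmel and Dct stood at 961 and 1743 CPM in all other kept control cells, and at 292 and 802 CPM in all other kept Dox cells. Its cells were shallow, at medians of 2768 and 3295.5 UMIs. The cluster led by S100a8 and Slpi (36 and 21 cells), of which S100a8 had UMIs in 1 and Slpi in 8 of the 57 cells, mixed the monocyte genes Ly6c2 (367 CPM) and Plac8 (1394 CPM) with the plasmacytoid genes Siglech (211 CPM) and Cox6a2 (189 CPM). The cluster led by Egfl7 and Ccl11 (19 and 10 cells) carried vessel and fibroblast genes such as Plvap (422 CPM) and Lum (628 CPM). Of its 29 cells, Egfl7 had UMIs in 5, Ccl11 in 3, Plvap in 4 and Lum in 20, and 14 of its 19 control and 4 of its 10 Dox cells were among the highest doublet scores.

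**Figure D2:**
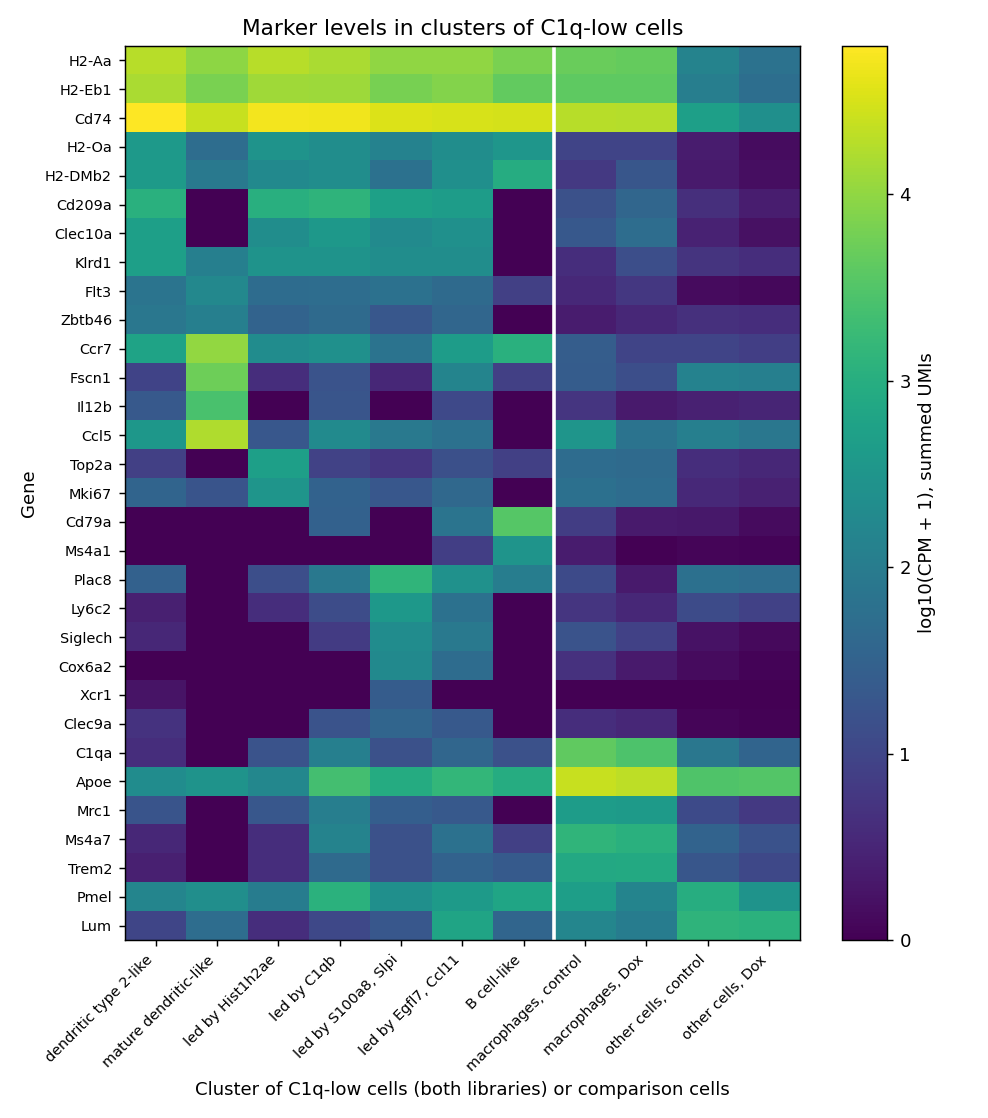
Colours give log10(CPM + 1) of summed UMIs for each gene (rows) in the 7 clusters of C1q-low cells, both libraries together, and to the right of the white line in macrophages and in all other kept cells of each library. Cd209a and Clec10a are high in the dendritic type 2-like cluster and at 0 in the mature dendritic-like and B cell-like clusters, and C1qa, Mrc1, Ms4a7 and Trem2 are highest in the macrophages.

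Cluster shares differed between the libraries in part. The dendritic type 2-like cluster took 31.8% of control members (26.3 to 37.6%) and 40.6% of Dox members (33.0 to 48.5%), intervals that overlap. The cluster led by C1qb took 30.3% (24.9 to 36.1%) and 14.5% (9.55 to 20.9%), but with 3000 variable genes in place of 1500 it took 25.5% and 23.6%. B cell-like cells were 10.2% of control (6.90 to 14.4%) and 17.6% of Dox members (12.1 to 24.3%). Genes that define these clusters also differed between the libraries, so cluster sizes are given as a description.

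**Figure D3:**
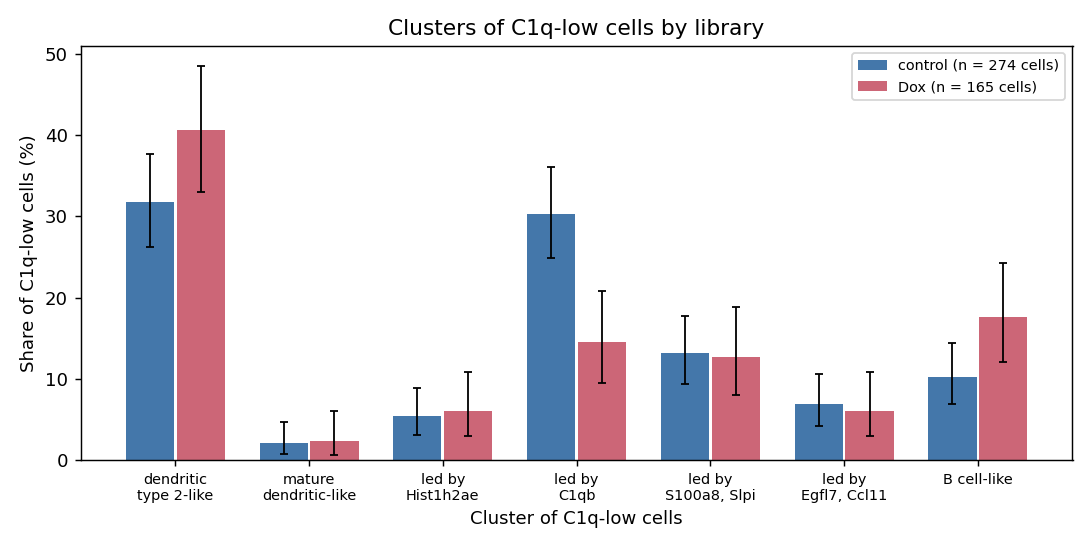
Bars give the share of C1q-low cells in each cluster in percent, for 274 control (blue) and 165 Dox cells (red), with exact 95% binomial intervals of counting error. The intervals of the libraries are apart for the cluster led by C1qb and overlap for the other 6 clusters.

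Markers of further cell types were counted in the members. Conventional type 1 dendritic cells were rare, with 2 or more UMIs of Xcr1 and Clec9a in 6 of 274 control and 1 of 165 Dox members. The Langerhans cell lectin Cd207 gave 2 and 1 UMIs in all. Epcam, the other gene of the Langerhans list, went the other way. Its member levels were 17.4 (control) and 21.0 CPM (Dox), while macrophages of both libraries held 0. All other kept cells had 0.368 (control) and 0.264 CPM (Dox) of Epcam. T cell genes summed to 15.7 CPM in the control and 3.23 CPM in the Dox library. RPE genes summed to 2573 and 3618 CPM, against 23443 and 33010 CPM in all other kept cells, with Ttr the most abundant. Fibroblast genes summed to 316 and 340 CPM, against 9644 and 8316 CPM. The melanocyte genes Pmel, Tyrp1, Dct, Mlana and Tyr summed to 2360 CPM in control and 417 CPM in Dox members, and to 4036 and 1641 CPM in all other kept cells. The part of such RNA in the results below was not tested.

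The members were next set against the C1q-positive macrophages of the same library. This is the contrast that chose the cells, so its values are a description. Of 2735 genes with at least 50 UMIs over both kinds and 50 CPM in the higher kind in each library, 197 were at least 2-fold higher in members in both libraries (7.2%) and 340 were at least 2-fold lower (12.4%). The median log2 ratio over these genes was -0.00 in control and -0.07 in Dox.

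Of 7 type 2 dendritic genes with enough UMIs, 6 were over 2-fold higher than in macrophages in both libraries, beside 7.2% of all genes, and Sirpa was lower. Of the other dendritic lists, 1 of 4 type 1, 1 of 4 plasmacytoid and 1 of 2 pan-dendritic genes with enough UMIs were over 2-fold higher. The plasmacytoid gene was Ly6d, which B cells also carry. Ly6d was at 1035 CPM in the B cell-like cluster and 70.4 CPM in the cluster led by S100a8 and Slpi. Cd209a had a log2 ratio of 5.92 in control (5.35 to 6.63) and 4.69 in Dox (4.19 to 5.28). Klrd1 (chr6:129591782-129598775) was at 353 and 352 CPM in members and at 3.25 and 13.5 CPM in macrophages. Flt3, the growth factor receptor of dendritic cells, was at 58.6 and 61.3 CPM in members and 2.60 and 4.91 CPM in macrophages, and Zbtb46, a transcription factor of conventional dendritic cells, at 47.6 and 61.3 CPM against 1.30 and 2.45 CPM. The decoy receptor Il1r2 was at 671 and 623 CPM, against 15.6 and 20.9 CPM. Itgax, which encodes CD11c, was much less distinct, at 66.2 and 67.0 CPM in members and 44.9 and 39.3 CPM in macrophages.

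Most accessory genes of the class II pathway stood above the macrophages. Among 10 accessory genes of the class II pathway with enough UMIs, 7 were over 2-fold higher in members of both libraries and 2 were lower, beside 7.2% and 12.4% of all genes. H2-Oa, which restrains peptide exchange, was at 282 and 289 CPM in members and at 8.45 and 8.59 CPM in macrophages. The β chain H2-DMb2 had 297 and 328 CPM against 5.20 and 18.4 CPM, while the related H2-DMb1 had 991 and 1051 CPM against 245 and 254 CPM. The partner of H2-Oa, H2-Ob, was at 127 and 148 CPM against 7.15 and 12.3 CPM, and Ciita was at 69.1 and 61.3 CPM, with log2 ratios of 2.38 and 1.52. The lysosomal thiol reductase Ifi30 was higher too, at 1189 and 1381 CPM against 370 and 411 CPM. By contrast, the lysosomal proteases Ctss (957 and 933 CPM against 3282 and 3931 CPM) and Lgmn (182 and 140 CPM against 1212 and 1121 CPM) were lower. H2-DMb1 and H2-DMb2 are close copies, and reads could have been split between them.

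Of 7 costimulation and checkpoint genes with enough UMIs, 2 were over 2-fold higher in both libraries and 1 was lower. Among all genes 7.2% were higher and 12.4% lower, so the count of lower genes was near that background. The ligand Cd80, which binds CD28 on T cells, was at 60.4 and 79.9 CPM in members, with log2 ratios over macrophages of 2.19 and 2.51, and Icosl at 97.5 and 115 CPM against 35.1 and 40.5 CPM. Its relative Cd86 was not higher, at 111 and 104 CPM against 146 and 109 CPM, and the inhibitory Vsir was lower, at 44.1 and 51.6 CPM against 127 and 151 CPM. The mature dendritic gene Ccr7 was at 439 and 897 CPM against 25.4 and 8.59 CPM. Of 6 mature dendritic genes with enough UMIs, 5 were over 2-fold higher in members in both libraries, beside 7.2% of all genes.

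Further genes near the top are known from B cells and monocytes. Iglc2 and Ly6d had 0 UMIs in the macrophages of both libraries. Against a floor of 3 UMIs per group, Iglc2 was at least 32.1-fold higher in control and at least 20.8-fold higher in Dox, and Ly6d at least 34.2-fold and 16.4-fold. Plac8 was at 300 and 188 CPM against 11.1 and 1.23 CPM. Mcemp1, Gm15987, Sema7a, Cd79a, Ifitm6 and Avpi1 completed the 15 genes with the largest ratios. Cd79a had UMIs in 31 of 274 control and 30 of 165 Dox members. Without members marked by B cell genes, which include Cd79a, its control log2 ratio was -2.17.

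Macrophage genes were low in the members. All 14 macrophage genes with enough UMIs were over 2-fold lower in both libraries, beside 12.4% of all genes. Apoe, which carries lipid, was at 1059 and 483 CPM in members and 24654 and 20428 CPM in macrophages. Trem2, a lipid receptor, was at 18.6 and 9.68 CPM against 792 and 812 CPM, the scavenger receptor Stab1 at 4.64 and 2.42 CPM against 263 and 264 CPM, and the chemokine Pf4 at 22.6 and 4.03 CPM against 661 and 874 CPM. Ms4a7 had log2 ratios of -4.81 in control and -6.38 in Dox. Folr2, Cbr2, Fcrls, Ccl12, Ltc4s, 4930430E12Rik, Gdf15, Igf1, Pla2g15 and Pdlim4 had the other large ratios, and Folr2, Cbr2 and 4930430E12Rik were at 0 in Dox members, at least 26.4-fold, 77.6-fold and 43.6-fold lower.

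Inflammatory genes went both ways. Il1b was higher in members (4720 and 4132 CPM against 1853 and 1411 CPM) at log2 ratios of 1.35 and 1.55. Ccl5 was at 630 and 380 CPM against 311 and 66.3 CPM, but 603 of its 1086 control UMIs lay in 1 member, so its control value rests on that cell. In turn, 13 of 20 cytokine and chemokine genes with enough UMIs were over 2-fold lower. These included Ccl4 (1235 and 388 CPM against 9161 and 5779 CPM), Cxcl2 (987 and 403 CPM against 9674 and 6291 CPM) and Tnf (239 and 165 CPM against 1419 and 1197 CPM). Of 20 phagocytosis and lysosome genes, 15 were over 2-fold lower and none higher, and 5 of 9 interferon genes were lower, beside 12.4% lower and 7.2% higher among all genes. Against the macrophages that also passed the class II limits, 147 genes were over 2-fold higher and 226 lower. These counts are of the genes with enough UMIs in that smaller set.

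**Figure D4:**
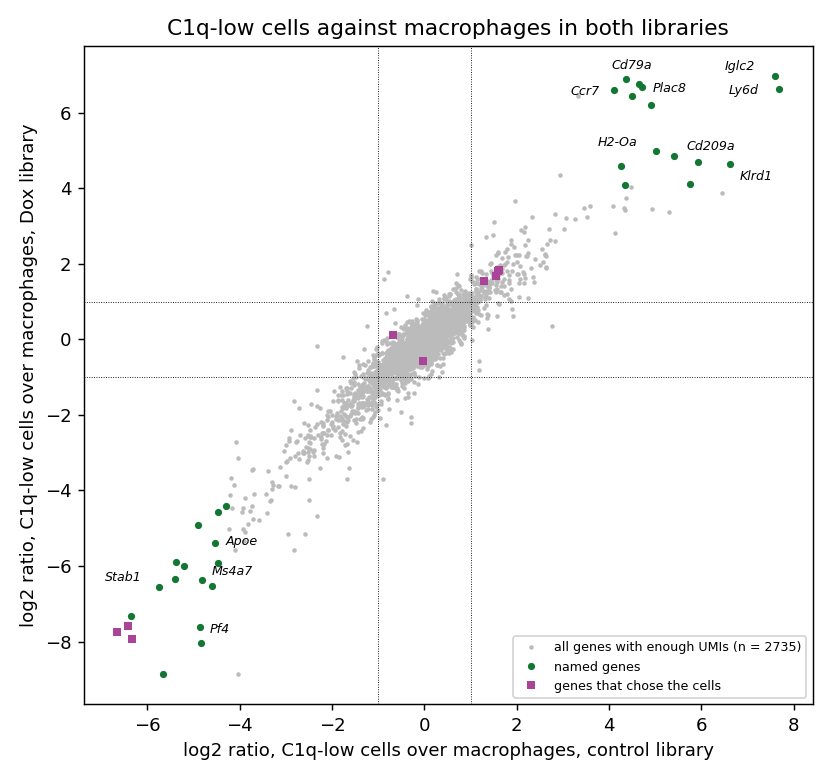
Each point is 1 of 2735 genes, with the log2 ratio of C1q-low cells over macrophages in control on the x axis and in Dox on the y axis. Named genes are green, genes that chose the cells are purple squares, and dotted lines mark 2-fold. Cd209a, Klrd1 and Ccr7 lie far up in both libraries and Apoe, Ms4a7 and Pf4 far down.

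Dox members were then set against control members. Few genes were apart: of 2552 genes with enough UMIs, 12 were at least 2-fold higher in Dox (0.47%) and 35 at least 2-fold lower (1.37%), with a median log2 ratio of -0.02. Of these, 8 and 12 stood at a higher level in the members than in all other kept cells of the library where they were higher. In macrophages, 23 of 2855 genes were at least 2-fold higher and 41 lower. Within the dendritic type 2-like cluster alone, 9 genes were at least 2-fold higher in Dox and 26 lower, and without the cluster led by C1qb the counts were 11 and 25. The minimum of UMIs was applied again to these smaller sums, so these counts are not out of the same 2552 genes. Several values rest on few cells.

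Antigen-presentation genes were read against all genes, of which 0.47% passed 2-fold upward and 1.37% downward. H2-Aa, used in the choice, was at 15301 CPM in the control and 16252 CPM in the Dox library, and within the dendritic type 2-like cluster at 19314 and 19508 CPM (log2 ratio 0.01, -0.02 to 0.05). None of 10 accessory class II genes, 11 class I genes and 7 costimulation and checkpoint genes with enough UMIs passed 2-fold, a count near that background. H2-Oa had a log2 ratio of 0.03 (-0.17 to 0.23) and Ciita of -0.17 (-0.61 to 0.26). Cd209a was at 0.12 (0.01 to 0.23), Klrd1 at -0.00 (-0.19 to 0.18) and Clec10a at 0.08 (-0.10 to 0.26), so that type 2 dendritic genes differed by far less than 2-fold.

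Some mature dendritic genes were higher in Dox. Of 8 such genes with enough UMIs, 3 passed 2-fold upward and none downward, beside 0.47% of all genes, and the 14 genes of the list summed to 1295 CPM in the control and 2131 CPM in the Dox library. Ccr7 (chr11:99144196-99155077) was at 439 CPM in the control and 897 CPM in the Dox library, a log2 ratio of 1.03 (0.90 to 1.17). The 4 Dox cells of the mature dendritic-like cluster held 442 of its 1112 Dox UMIs, and without the highest cell the ratio was 0.75. The B cell-like cluster carried Ccr7 too, at 1122 CPM over both libraries. It held 53 of the 756 control and 102 of the 1112 Dox UMIs of Ccr7. The part of this cluster and its share in the Ccr7 ratio was not tested. Within the dendritic type 2-like cluster, Ccr7 was at 450 CPM in the control and 756 CPM in the Dox library (0.75, 0.53 to 0.97), and without the highest Dox cell of the cluster the ratio was 0.50. Ccl22, a chemokine that draws CCR4-bearing T cells, was at 67.3 and 163 CPM (1.27, 0.94 to 1.62) over all members. Its log2 ratio was 1.13 without the highest cell, but 0.63 within the dendritic type 2-like cluster and 0.44 without the highest cell there. Il12b was at 27.9 and 115 CPM, but 94 of its 143 Dox UMIs lay in 1 cell, without which the log2 ratio was 0.52. In macrophages Ccr7 went from 25.4 to 8.59 CPM.

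Of the 12 genes at least 2-fold higher in Dox, 8 stood above the level in all other kept cells, and the other 5 of these were of mixed kinds. Myc, a growth regulator, was at 47.0 and 95.2 CPM (1.01, 0.60 to 1.44), with a log2 ratio of 0.89, within 2-fold, when its highest Dox cell was left out. Plvap, a vessel gene, was at 22.6 and 75.8 CPM with UMIs in 4 control and 8 Dox cells, and its log2 ratio was -0.10 without the highest doublet scores. S100a8 and S100a9, neutrophil and monocyte genes, had their 96 and 81 Dox UMIs in 1 cell. Igkv1-110 had 0 control UMIs and 111 Dox UMIs in 3 cells, at least 51.4-fold higher against a floor of 3 UMIs, so its value is that of those cells.

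Of 6 plasmacytoid dendritic genes with enough UMIs, 2 were at least 2-fold lower in Dox, beside 1.37% of all genes. Siglech, a surface receptor of these cells, had 115 control UMIs and 3 Dox UMIs, and Cox6a2 had 92 and 0, at least 22.1-fold lower. Their UMIs lay in 12 and 6 control cells. At least 2 UMIs of Siglech, Ccr9, Cox6a2 and Klk1 were found in 7 of 274 control members (2.55%, 1.03 to 5.19%) and 0 of 165 Dox members (0 to 2.21%), intervals that overlap. Irf8, a factor of plasmacytoid and type 1 dendritic cells, went from 117 to 41.1 CPM (-1.49, -1.98 to -1.05). In the dendritic type 2-like cluster it had 26 control UMIs, 17 of them in 1 cell, and 1 Dox UMI, and in macrophages it was at 144 and 173 CPM. Cd7 was at 77.8 and 22.6 CPM.

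Of 15 cytokine and chemokine genes with enough UMIs, 1 passed 2-fold upward (Il12b) and 4 downward (Ccl3, Ccl4, Ccl7 and Cxcl2), beside 0.47% and 1.37% of all genes. Ccl4 was at 1235 CPM in the control and 388 CPM in the Dox library (-1.67, -1.82 to -1.53), Ccl3 at 326 and 116 CPM (-1.49, -1.76 to -1.22) and Cxcl2 at 987 and 403 CPM (-1.29, -1.44 to -1.15). In macrophages the log2 ratios were -0.66, -0.74 and -0.62, and in all other kept cells they were -1.33, -1.24 and -0.79. Within the dendritic type 2-like cluster, Ccl4 was at 290 CPM in the control and 384 CPM in the Dox library (0.41, 0.12 to 0.69), Ccl3 at 95.1 and 112 CPM, and Cxcl2 at 367 and 468 CPM. Without the highest Dox cell of the cluster, the log2 ratios were -0.06 for Ccl4, 0.04 for Ccl3 and 0.12 for Cxcl2. The cluster led by C1qb had Ccl4 at 3064 and 826 CPM, and was a larger share of control members. The part of cluster shares in the difference over all members was not tested. Ccl5 had 630 and 380 CPM over all members and 166 and 539 CPM in the dendritic type 2-like cluster (1.69, 1.38 to 2.03). Of its 1086 control UMIs over all members, 603 lay in 1 cell of the mature dendritic-like cluster. Without that cell the log2 ratio over all members was 0.43. The highest Dox cell, with 153 of the 471 Dox UMIs, was still in, and no ratio without both cells was taken. Which library was higher in Ccl5 over all members thus rests on single cells. Of the 313 Dox UMIs of Ccl5 in the dendritic type 2-like cluster, 153 lay in 1 cell, without which the ratio there was 0.75.

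**Figure D5:**
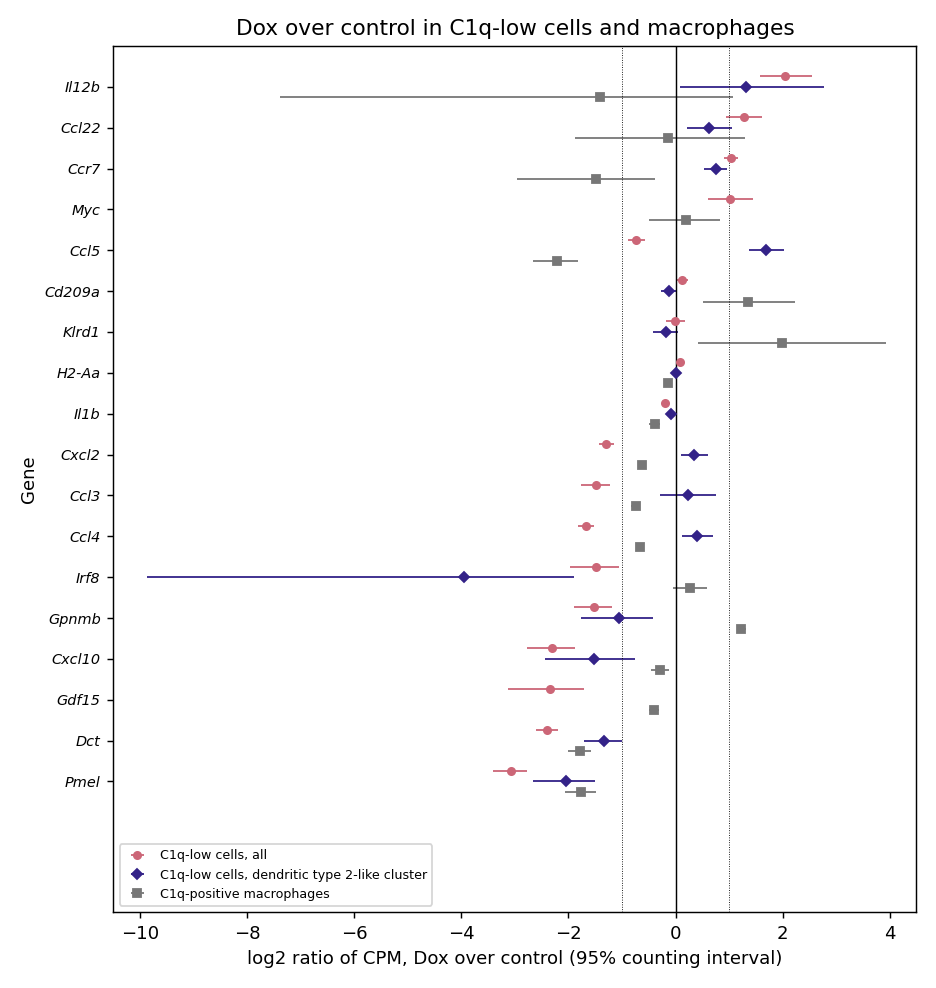
Points give the log2 ratio of CPM, Dox over control, with 95% counting intervals, for 18 genes in all C1q-low cells (red circles), in their dendritic type 2-like cluster (blue diamonds) and in macrophages (grey squares). Dotted lines mark 2-fold, and Myc and Gdf15 have no point for the cluster. Ccr7 and Ccl22 lie right of 0 in both sets of C1q-low cells, while Ccl3, Ccl4 and Cxcl2 lie left of 0 over all C1q-low cells and slightly right of 0 in the cluster, where Ccl4 was at -0.06 without its highest Dox cell.

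Interferon-induced chemokines were lower in Dox members. Cxcl10 was at 196 CPM in the control and 39.5 CPM in the Dox library (-2.30, -2.77 to -1.88), and at 86.0 and 29.3 CPM within the dendritic type 2-like cluster (-1.53, -2.43 to -0.75), or -1.04 without the highest control cell there. In all other kept cells its level was higher than in control members, at 425 CPM. Cxcl9 had 95 control UMIs, 77 of them in 1 cell, and 3 Dox UMIs. Together, 2 of 6 interferon genes with enough UMIs, Cxcl10 and Cxcl9, passed 2-fold downward, beside 1.37% of all genes, and Isg15 was at 132 and 117 CPM. Gdf15, a stress cytokine and p53 target, had 145 control UMIs in 45 cells and 20 Dox UMIs in 10 cells (-2.35, -3.14 to -1.70). Of the control UMIs, 113 lay in the cluster led by C1qb. The macrophages held Gdf15 at 2043 and 1540 CPM, and the macrophage genes Apoe (1059 and 483 CPM), Ms4a7 (48.8 and 12.9 CPM) and Pf4 (22.6 and 4.03 CPM) were lower in Dox members too. Their part in the Gdf15 value was not tested. The p53 target Cdkn1a was at 700 and 725 CPM (0.05, -0.08 to 0.18). Myo5a (-1.54), Hist1h2ae (-1.27) and Iglc3 (-1.05) were the other genes at least 2-fold lower that the rule named. Without the highest control cell, Hist1h2ae was at -0.94 and Iglc3 at -0.74, both within 2-fold.

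Pigment genes were lower in Dox in members and in other cells alike. In members, 4 of 4 melanocyte genes with enough UMIs were at least 2-fold lower, beside 1.37% of all genes. Pmel was at 601 and 71.0 CPM in members (-3.07, -3.41 to -2.77), at a log2 ratio of -1.76 in macrophages and -1.72 in all other kept cells, where the control level was higher (961 CPM). The highest control member held 264 of the 1036 control Pmel UMIs, and without it the member ratio was -2.67, outside that interval. Dct was at 981 and 186 CPM (-2.39), against -1.79 and -1.12. Tyrp1 and Mlana went the same way, at -2.25 and -2.51. The acute-phase genes Serpina3n and A2m were higher in Dox members at log2 ratios of 2.39 and 1.68, and at 3.08 and 1.99 in all other kept cells. Whether RNA from other cells took part in these values was not tested.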

How the data were processed

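The authors aligned the reads of both 5′ libraries to mm10 and counted UMIs with Cell Ranger, of which the files' headers name version 4.0.0. The deposited values are raw counts of UMIs per gene (32285) and cell. The files hold 20381 control cells with 117731270 UMIs and 15649 Dox cells with 103997248 UMIs. With Python 3.11.15, scipy 1.17.1, pandas 2.3.3 and scanpy 1.11.5, UMIs were summed per group and given as CPM, with exact Poisson, Clopper-Pearson and conditional binomial intervals. Ratios had 0.5 counts added. Intervals cover counting error only.

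Members were clustered (Leiden, 1500 variable genes without those of the rule, 20 components, 15 neighbours, resolution 0.5). Doublets were scored with Scrublet and kept. At the expected rates of 16.2% (control) and 12.4% (Dox), the top-scoring cells included 36 control and 14 Dox members, left out in an alternative.

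The members and gene lists were chosen with earlier results of these data known. Named genes were, for Dox over control, the 12 largest rises and falls among genes past 2-fold with at least 50 UMIs over both groups, 50 CPM in the higher group and a higher level than in other cells, and against macrophages the 15 with the largest smaller ratio of both libraries, plus genes of the lists. Only 8 rises met this rule. Serpina3n and A2m were named after their values were seen. Gene positions are from GENCODE vM21, which held 32235 of the gene IDs. The annotation version of the files is not given in the sources used here. Figures were drawn with matplotlib 3.10.9. Some marker values are not reported here.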

Additional observations from a re-analysis of the deposited data

Results flagged for a closer look

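Gpnmb, a glycoprotein gene of macrophages and pigment cells, moved in opposite directions in members and macrophages, the single gene of 2200 compared in both that passed 2-fold each way. In C1q-low cells it was at 200 CPM in the control and 69.4 CPM in the Dox library, a log2 ratio of -1.52 (-1.89 to -1.18), and in macrophages at 1419 and 3322 CPM, a log2 ratio of 1.23. The dendritic type 2-like cluster had -1.05 (-1.76 to -0.41). Of the 345 control UMIs in members, 204 lay in the cluster led by C1qb (533 and 222 CPM), which was 30.3% of control and 14.5% of Dox members, and the part of that share was not tested. The highest control cell held 53 of 345 UMIs, and without it the ratio was -1.30. The difference between the groups was not tested, with 1 library per condition.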

How the results depend on the processing

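No paired analysis was possible because each condition has 1 library. The member share of control cells moved from 1.36% to 1.14% with class II limits of 40 UMIs and 20000 CPM, 1.20% with under 3 C1q UMIs, 1.19% with under 1000 C1q CPM and 1.18% without the highest Scrublet scores, and that of Dox cells from 1.07% to 0.874% without members marked by B cell genes. With no minimum of UMIs per gene, 1449 genes were higher and 2731 lower in Dox, and 713 higher and 1548 lower than in macrophages. With cells thinned to 2000 UMIs, 123 and 161 genes differed from macrophages, and against macrophages that passed the class II limits 226 were lower. In each of these settings the set of genes counted also changed, so the counts cannot be compared directly with the main ones. At resolution 1.0 the cluster led by C1qb took 18.2% of control and 9.09% of Dox members, at 0.3 the dendritic type 2-like cluster took 49.7% of Dox members, and with 3000 variable genes the cluster led by C1qb took 23.6% of Dox members. The cause was not tested. Of 1015 gene ratios under these and the other settings of limits, doublets, normalization and depth, 913 stayed within their interval, 100 left it and 2 changed sign. Those 2 were Plvap, at -0.10 without the highest Scrublet scores, and Cd79a against control macrophages, at -2.17 without members marked by B cell genes. The latter follows from the setting, since Cd79a is one of the genes that marked the cells left out. The 913 include all 80 ratios under at least 100 UMIs per gene and all 80 under no minimum. These 2 settings changed only which genes were counted, so those ratios could not move and are no check. Under 3 further settings chosen after seeing the data (the dendritic type 2-like cluster alone, or without the cluster led by Egfl7 or that led by C1qb), 178 of 227 ratios stayed within their interval, 45 left it and 4 changed sign, and 16 of 80 left it without the cluster led by C1qb. The dendritic type 2-like cluster alone turned Ccl4 to 0.41, Ccl3 to 0.23, Cxcl2 to 0.35 and Cd79a against control macrophages to -3.18. No ratio was taken where both sums were 3 UMIs or fewer. The number of cells limits rare subsets: the plasmacytoid genes rest on 7 of 274 control and 0 of 165 Dox members, and the difference was not tested.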

Other observations

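Further gene groups were counted against the 0.47% of all genes that were at least 2-fold higher in Dox members and the 1.37% that were lower. None of 21 oxidative phosphorylation genes and none of 16 immediate early genes passed 2-fold in members, with median log2 ratios of -0.12 and 0.12, counts near that background. Of 9 heat shock genes with enough UMIs, 1 did, Hspa1a, at 45.9 CPM in the control and 124 CPM in the Dox library (1.43, 1.04 to 1.85). Cycle genes summed to 540 and 595 CPM, with 0 of 6 past 2-fold. The pattern receptors Tlr2 and Nlrp3 were at 140 and 141 CPM and at 226 and 211 CPM, and Cd14 at 331 and 375 CPM.

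The 29 interferon genes in the files summed to 1231 CPM in control members and 767 CPM in Dox members, while they summed to 2437 and 3138 CPM in macrophages and to 1595 and 1778 CPM in all other kept cells. Ifit2 had 35 control and 3 Dox UMIs in members, Oasl1 had 39 and 4, and Gbp2 had 24 and 2, each under the minimum of 50 UMIs over both groups. These 3 genes were picked for their low Dox values, and 27 of the 35 control UMIs of Ifit2 lay in the cluster led by C1qb. Much of the lower sum was in Cxcl10 (196 and 39.5 CPM), Bst2 (316 and 204 CPM) and Cxcl9 (55.1 and 2.42 CPM, with 77 of 95 control UMIs in 1 cell). Isg15 (132 and 117 CPM), Irf7 (66.8 and 62.1 CPM), Oasl2 (24.4 and 24.2 CPM), Zbp1 (25.5 and 25.8 CPM) and Isg20 (25.0 and 31.5 CPM) differed little. These differences were not tested.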
